A study of Mus musculus with 42 samples.

Results

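The 8 genes described here belong to nitric oxide and arginine metabolism and were followed through mouse carotid intima and cultured aortic endothelial cells. They were chosen by name, as the rows for Nos3, Nos2, Ass1, Asl, Ddah1, Ddah2, Slc7a1 and Slc7a2 in a table of 21674 genes, so 8 of 21674 genes are members and all 8 were found. RNA-seq was done on 42 libraries, 35 of them from carotid arteries, and each artery library was a pool of intimal RNA from 3 to 5 vessels flushed with Trizol. In partial carotid ligation, most outflow branches of the left carotid are tied, which leaves low and disturbed flow on that side and high flow in the contralateral artery.

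Untreated C57BL/6J mice aged 6 to 7 weeks gave 3 pools each of low-flow, high-flow and sham-operated (normal flow) intima at 48 hr. In ligated C57BL/6J mice that received IgG control, a platelet-depleting GPIba antibody, a granulocyte-depleting Gr1 antibody, PBS liposomes or clodronate liposomes (which deplete macrophages), low-flow intima was sampled at 48 hr in 2 pools a treatment. High-flow intima came from the IgG and the PBS liposome mice, also in 2 pools each. At 7 days, Rbfox2 EC-KO mice, which carried Cdh5(PAC)-CreERT2, Rosa26-mTmG and floxed Rbfox2 alleles, were compared with littermates that carried the same floxed alleles and reporter but no Cre. Both were on a mixed C57 background and aged 2 to 7 months, with 3 low-flow and 2 high-flow libraries per genotype. The Cre acts in endothelium only, so other cells of the flush kept Rbfox2. Cultured cells gave 1 library a condition. One aortic endothelial line, immortalized by TetOn-SV40 and so a single line, was left untreated or given plasma, platelets and macrophages, or all of these for 48 hr. Sorted primary aortic endothelial cells were from Rbfox2 control and EC-KO mice (7 days in culture) and from Cdh5(PAC)CreERT2; mTmG+ mice (eGFP+, 5 days in culture).

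Endothelial nitric oxide synthase makes nitric oxide from arginine, and the gas relaxes smooth muscle and restrains leukocyte and platelet adhesion. Arginine comes from outside the cell through cationic amino acid transporters, or from citrulline through argininosuccinate synthase and lyase. Methylated arginines inhibit the synthases and are removed by dimethylarginine dimethylaminohydrolases.

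In NCBIM37 coordinates (the assembly of mm9), Nos3 (ENSMUSG00000028978) lies at chr5:23870628-23890292 on the plus strand, and Nos2 (ENSMUSG00000020826) at chr11:78734289-78773756 on the plus strand. Ass1 (ENSMUSG00000076441) spans chr2:31325727-31376192 on the plus strand and Asl (ENSMUSG00000025533) chr5:130487128-130501002 on the minus strand. Ddah1 (ENSMUSG00000028194) occupies chr3:145421639-145557241 and Ddah2 (ENSMUSG00000007039) chr17:35195980-35199040, both on the plus strand. The transporter genes are Slc7a1 (ENSMUSG00000041313) at chr5:149138986-149211480, minus strand, and Slc7a2 (ENSMUSG00000031596) at chr8:41947750-42007662, plus strand. All values here are summed over a whole gene.

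Promoters from RefSeq, build GRCm38.p6, matched 4 of the 8 members (Ass1, Ddah1, Ddah2 and Slc7a1). The 250 bases before each start were searched on both strands for CACCC, the core of sites bound by Krüppel-like factors, and for TGANTCA, the AP-1 site. These motifs belong to factor families known to respond to flow. Stretches of 30 bases around the matches are shown, with the motif in capitals (GGGTG is CACCC on the opposite strand), each written along the strand of its gene.
Ass1, 116 bases before the start, chr2:31470142-31470171, plus strand: cggggccacgccCACCCgcaggtggcctcg
Ddah2, 96 bases before the start, chr17:35058927-35058956, plus strand: ctagcaggatcaGGGTGggcctggacactg
Slc7a1, 149 bases before the start, chr5:148400036-148400065, minus strand: ggagggggctcgCACCCctcagcctgtgcc
Slc7a1, 44 bases before the start, chr5:148399931-148399960, minus strand: aagcccggtctcGGGTGtccccgcccacag
Slc7a1, 123 bases before the start, chr5:148400010-148400039, minus strand: tgccatcagctcTGACTCAagctcagttgc
The Ddah1 promoter and a second Slc7a1 promoter had neither motif in this window. CACCC occurred in 17087 of 32851 promoters (52.0%) and TGANTCA in 2217 (6.7%), and a match is a description of the letters only.

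Levels are given as FPKM, the expected counts of a gene per kilobase of its effective length and scaled to the total of the library. Fold changes are log2 values from edgeR's quasi-likelihood test with TMM scaling, and a gene was called where the Benjamini-Hochberg adjusted p over all tested genes was below 0.05. Libraries held 4064477 to 6794904 counts for the untreated 48 hr pools, 5223017 and 5901210 for the 2 liposome pools read at 100 bp, 10318685 to 19035957 for the 150 bp libraries of treated and 7 day intima, and 4989843 to 16394043 for cultured cells. High-flow pools came from the contralateral arteries of ligated mice, and which low-flow and high-flow pools shared animals is not given in the sources used here. The p-values measure the spread between pools, part of which may be technical. Rbfox2 was at 2.74 to 5.73 FPKM in the 5 control libraries at 7 days and at 0.169 to 1.09 in the 5 EC-KO libraries. Endothelial markers (11 genes) took 0.407% to 0.543% of counts in the untreated low-flow pools and 0.967% to 1.14% in high-flow pools, with no marker at 0. Macrophage markers (14 genes) took 0.231% to 0.343% against 0.00746% to 0.0181%, and at most 1 of them was at 0 in a high-flow pool. Neutrophil markers (9 genes) took 0.0235% to 0.0495% against 0.000683% to 0.00159%. These shares are of library totals, and on the TMM scale the endothelial list went both ways. Against sham, Kdr (log2 1.49) and Emcn (1.39) were called higher. Tek (-1.21), Vwf (-1.52), Icam2 (-0.98) and Cldn5 (-0.99) were called lower, and the rest were not called. Against high flow, Pecam1 (-0.79) and Cdh5 (0.41) were not called. In such bulk RNA, fewer cells of a type and less RNA per cell cannot be told apart.

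At 48 hr of low flow the endothelial synthase Nos3, the citrulline-recycling enzyme Ass1 and the arginine transporter Slc7a2 were lower, and the dimethylarginine hydrolase Ddah1 was higher. Against high flow, 4 of the 7 members tested were called, 1 higher and 3 lower, where 46.2% of all tested genes were called (23.6% higher, 22.6% lower). Against sham, where 40.3% of tested genes were called (20.6% higher, 19.7% lower), the same 4 of 7 tested members were called in the same directions. A count of 4 in 7 is thus near the background, and the members' median log2 fold change was -0.34 against -0.07 for all genes. The sizes of single changes carry the description that follows. Both comparisons share the low-flow pools.

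**Figure D1:**
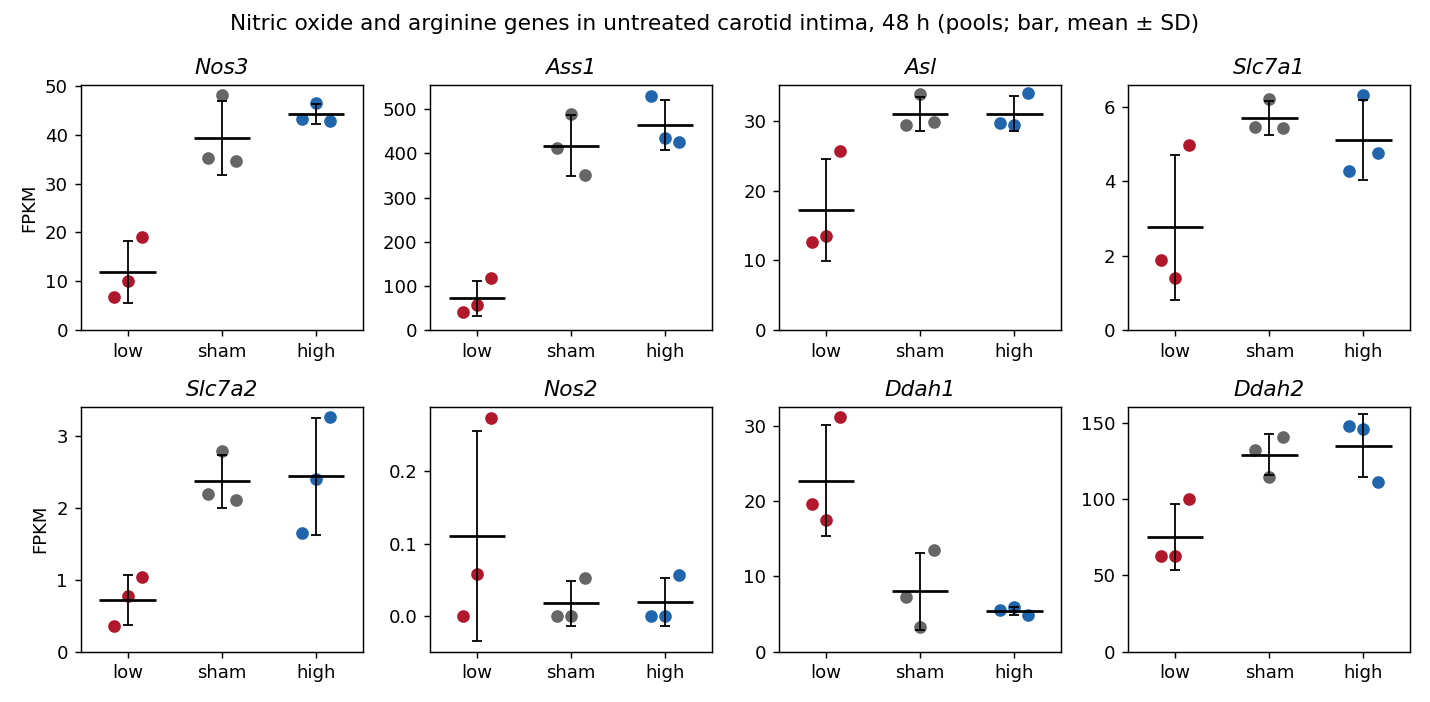
Levels of the 8 genes in untreated intima at 48 hr, in FPKM on the vertical axes, with each point 1 pool, the horizontal line the mean of 3 pools and the whisker the SD. Nos3 and Ass1 sit lower and Ddah1 higher in the 3 low-flow pools than in any high-flow or sham pool.

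Nos3 read 6.77, 10 and 19 FPKM in the low-flow pools a, b and c. It read 43.3, 46.6 and 42.9 in the high-flow pools, and 35.3, 48.2 and 34.6 in the sham pools. Every low-flow pool lay below every other pool. The log2 fold change was -1.29 (SE 0.21, adjusted p = 0.0005601) against high flow and -1.08 (SE 0.22, adjusted p = 0.007115) against sham by edgeR. Mean levels were 11.9 ± 6.32 FPKM at low flow and 44.3 ± 2.05 at high flow (SD, n = 3 each). FPKM use library totals, and with totals in place of TMM, a scaling added after seeing the data, the log2 fold change of Nos3 against high flow was -1.89. That scaling moved the median of all genes from -0.07 to -0.69 against high flow and from -0.04 to -0.71 against sham. Under it 1044 genes were higher and 3084 lower against high flow (TMM 2652 and 2543), and 642 were higher and 2716 lower against sham (TMM 2304 and 2195). The same 4 members were called under both scalings in both comparisons.

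Ass1, which joins citrulline to aspartate, was the most abundant member in the untreated high-flow pools, per length. Its levels were 40.6, 56.7 and 117 FPKM in low-flow pools, against 530, 436 and 427 at high flow and 413, 489 and 351 in sham pools. The groups were wide apart, with a log2 fold change of -2.12 (SE 0.27, adjusted p = 0.0001222) against high flow and -1.91 (SE 0.25, adjusted p = 0.001635) against sham. Asl, the next enzyme, which releases arginine, read 12.6, 13.5 and 25.7 FPKM at low flow and 29.8, 29.5 and 34 at high flow. These did not overlap in FPKM, but on the TMM scale the log2 difference was -0.21 (95% interval -0.54 to 0.11, adjusted p = 0.3059). Against sham it was -0.17 (adjusted p = 0.3868).

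The transporters were lower in abundance. Slc7a2 read 0.351, 0.776 and 1.05 FPKM at low flow, 1.65, 2.41 and 3.27 at high flow, and 2.2, 2.8 and 2.12 after sham. Its log2 fold change was -1.14 (SE 0.33, adjusted p = 0.01659) against high flow and -1.06 (SE 0.30, adjusted p = 0.02209) against sham. The call against high flow was lost without low-flow pool a (adjusted p = 0.06642) or high-flow pool c (0.0634). Against sham it was lost without low-flow pool a (0.07508) or c (0.05077), or sham pool a (0.05549) or b (0.06338). Slc7a1, the constitutive cationic transporter, read 1.88, 1.41 and 4.99 FPKM at low flow and 4.27, 6.32 and 4.76 at high flow. Its groups overlapped and the log2 difference was -0.34 (95% interval -0.79 to 0.12, adjusted p = 0.253). Against sham it was -0.46 (adjusted p = 0.1122), or -0.68 (adjusted p = 0.03333) without low-flow pool c.

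Ddah1 and Ddah2, which share an enzyme name, parted. Ddah1 read 19.6, 17.4 and 31.1 FPKM at low flow, 5.54, 5.88 and 4.83 at high flow, and 7.3, 3.28 and 13.5 after sham. It rose by a log2 of 2.73 (SE 0.19, adjusted p = 2.36e-06) against high flow and 2.19 (SE 0.43, adjusted p = 0.006072) against sham. Ddah2 read 62.6, 62.6 and 100 FPKM at low flow and 148, 146 and 111 at high flow. On the TMM scale its log2 difference was -0.17 (95% interval -0.58 to 0.24, adjusted p = 0.5285) and against sham -0.06 (adjusted p = 0.8146).

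Nos2, the inducible synthase of activated macrophages, was near the limit of detection. It had 0, 1 and 6 counts at low flow, 0, 0 and 1 at high flow and 0, 0 and 1 after sham, and was not tested. The counts 7 against 1 gave a ratio of 6.16 (counting interval 0.791 to 277), so no difference was detectable at this depth. The calls of Nos3, Ass1 and Ddah1 held without any single pool in both comparisons.

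Between high flow and sham, none of the 7 tested members was called and no gene at all (0% of 11030 tested), although 868 genes had an unadjusted p below 0.05 and DESeq2 called 101. Log2 differences of Nos3 (0.23, 95% interval -0.10 to 0.56) and Ass1 (0.22, -0.15 to 0.59) were small against the low-flow changes.

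**Figure D2:**
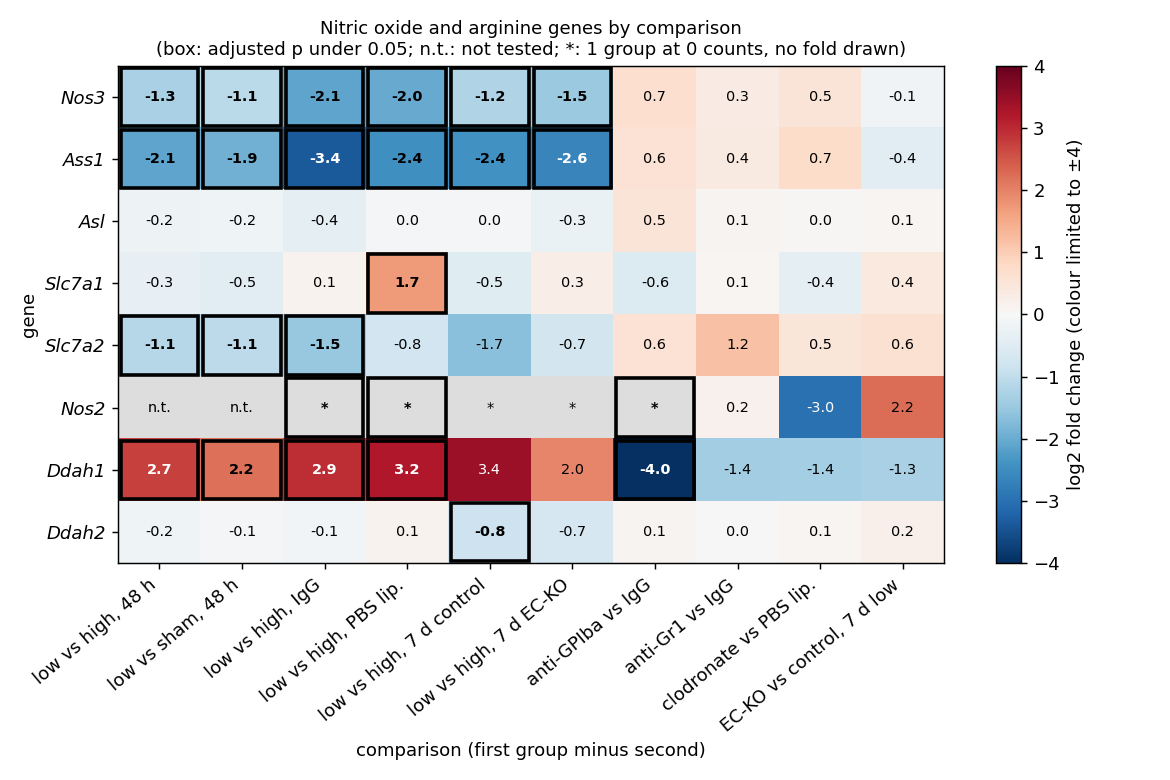
Log2 fold changes of the 8 genes (rows) in 10 comparisons (columns), red higher and blue lower in the first-named group, with boxes where edgeR's adjusted p was below 0.05. Nos3 and Ass1 are boxed and blue in all 6 comparisons of low with another flow, while Asl is boxed in none.

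The treated mice gave a second look at low against high flow, at greater depth. Under IgG, 5 of the 8 members were called (2 higher, 3 lower), where 40.5% of tested genes were called (22.8% higher, 17.7% lower). Under PBS liposomes 5 were called (3 higher, 2 lower), where 35% were (19.6% higher, 15.5% lower). The read file names in the header of the table carry an earlier date for the low-flow libraries of these treatments than for the high-flow ones. Flow and read file date therefore cannot be told apart in this set.

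Nos3 read 134 and 93.5 FPKM at low flow under IgG against 524 and 397 at high flow. Under PBS liposomes it read 86.3 and 107 against 504 and 336. The log2 fold changes were -2.10 (SE 0.27, adjusted p = 0.0006892) and -2.02 (SE 0.27, adjusted p = 0.000562). Ass1 was at 8.18 and 3.59 FPKM against 64.1 and 49.3 under IgG, and at 4.38 and 3.69 against 27 and 20.3 under PBS liposomes. It fell by 3.36 (adjusted p = 0.0005756) and by 2.44 (adjusted p = 0.001211) on the log2 scale. Both genes kept their calls when any 1 library was left out of either comparison. Slc7a2 was at 3.32 and 1.79 FPKM against 6.13 and 7.45 under IgG (log2 -1.50, adjusted p = 0.01268). Under PBS liposomes it read 2.84 and 1.64 against 4.43 and 3.73 and was not called (log2 -0.75, adjusted p = 0.1574).

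Ddah1 and Nos2 were called higher at low flow under both treatments. Ddah1 read 58.7 and 73.4 FPKM against 9.35 and 6.87 under IgG (log2 2.95, adjusted p = 0.01316), and 125 and 75 against 11.8 and 11.7 under PBS liposomes (log2 3.20, adjusted p = 0.01068). Nos2 had 11 and 21 counts at low flow against 0 and 0 under IgG, at least 7.78-fold higher against a floor of 3 counts over the group (adjusted p = 0.01381). Under PBS liposomes 13 and 15 counts stood against 0 and 0, at least 7.52-fold higher (adjusted p = 0.01411). With 0 counts at high flow, Nos2 passed the filter on low counts before the test only through low-flow libraries. Its calls are therefore a description of these counts.

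These calls were less firm than those of Nos3 and Ass1. Under IgG, the calls of Ddah1, Nos2 and Slc7a2 were lost without low-flow library 2. Ddah1 and Nos2 also lost theirs without either high-flow library, and Slc7a2 without high-flow library 2. Under PBS liposomes, Nos2 lost its call without any 1 library, and Ddah1 without either high-flow library. Slc7a1 was called only under PBS liposomes, at 11.6 and 7.92 FPKM against 3.03 and 3.51 (log2 1.69, adjusted p = 0.01136), and not without low-flow or high-flow library 1. Under IgG it read 7.65 and 5.82 against 4.99 and 6.52 (log2 0.14, adjusted p = 0.811), and whether the treatments differ was not tested. Asl and Ddah2 overlapped between flows under both treatments. Macrophage markers took 0.234% to 0.26% of counts in the low-flow and 0.00842% to 0.0278% in the high-flow IgG libraries, with up to 3 of 14 at 0 at high flow, and 0.138% to 0.233% against 0.0126% to 0.0218% under PBS liposomes, with none at 0. Neutrophil markers took 0.0121% to 0.0376% against 0.000757% to 0.00333% under IgG, with up to 4 of 9 at 0 at high flow, and 0.0107% to 0.0332% against 0.000845% to 0.00151% under PBS liposomes. Endothelial markers took 0.458% to 0.604% against 1.81% in both high-flow libraries under IgG, and 0.431% to 0.446% against 1.02% to 1.37% under PBS liposomes. Smooth muscle markers took 0.437% to 0.472% against 0.0509% to 0.0766%, and 0.302% to 0.589% against 0.0485% to 0.0924%. In the test 6 of 11 endothelial markers were lower and 2 higher under IgG, and 5 lower and 2 higher under PBS liposomes, with Pecam1 (log2 -2.27 and -2.15) and Tek (-1.92 and -2.53) lower and Emcn (2.25 and 2.36) higher in both. Macrophage markers had 11 and 9 of 14 higher, neutrophil markers 7 and 6 of 9, and Acta2 and Tagln were the smooth muscle markers called, higher in both. Of platelet, fibroblast and fat markers under IgG, Pf4 (log2 3.01) was called higher. Gp1ba (-1.43), Col1a1 (-2.37), Pi16 (-3.12) and Plin1 (-4.19) were called lower, and the rest of these lists were not called. The part of all these markers in the members' changes was not tested.

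After platelet depletion, Ddah1 and Nos2 read lower in low-flow intima than with IgG. Against IgG, 2 of the 8 members were called, both lower, where 16.5% of tested genes were called (10.5% lower). The median log2 fold change of the members was 0.31, against -0.04 for all genes. These libraries had the same read file date, and the IgG libraries also entered the comparison of flows above.

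**Figure D3:**
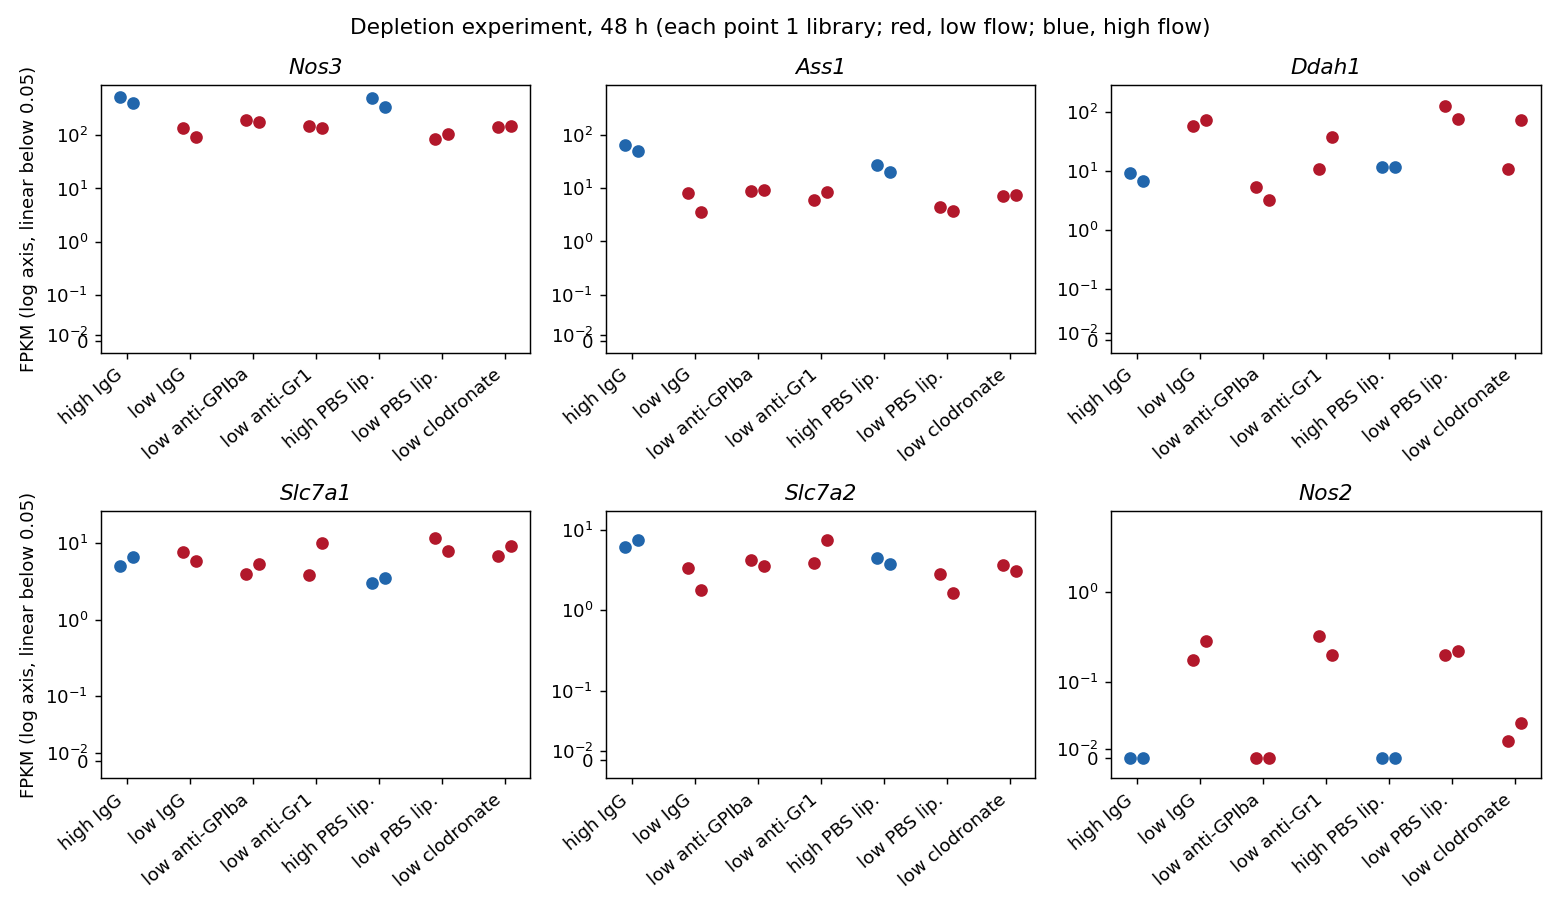
Levels of Nos3, Ass1, Ddah1, Slc7a1, Slc7a2 and Nos2 in intima of treated mice at 48 hr, in FPKM on a log axis that is linear below 0.05, with each point 1 library (red low flow, blue high flow) and 2 libraries a group. Ddah1 is at 58.7 and 73.4 in low-flow IgG libraries and at 5.34 and 3.19 after GPIba antibody, next to the high-flow IgG values of 9.35 and 6.87.

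Ddah1 read 5.34 and 3.19 FPKM after GPIba antibody against 58.7 and 73.4 with IgG, a log2 fold change of -3.98 (SE 0.83, adjusted p = 0.02188). Both depleted libraries lay below both IgG libraries. Nos2 had 0 and 0 counts after depletion against 11 and 21, at least 10.7-fold lower (adjusted p = 0.03129). The Nos2 call rests on a filter passed only through low-flow libraries outside the depleted group. Leaving out any 1 of the 4 libraries removed these calls, at adjusted p from 0.05111 to 0.2071. All-gene calls fell with them, from 2216 to between 1 and 89.

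Marker levels moved with this contrast. Macrophage markers took 0.0232% to 0.0311% of counts after GPIba antibody against 0.234% to 0.26% with IgG, and no macrophage marker was at 0 in either group. Neutrophil markers took 0.00043% to 0.00132% against 0.0121% to 0.0376%, with up to 2 of 9 at 0 after depletion. Smooth muscle markers (8 genes) took 0.0724% to 0.102% against 0.437% to 0.472%, but in the test only Acta2 (log2 -2.90) and Tagln (-1.58) were called, while Myh11 (1.18), Lmod1 (1.51), Des (2.13), Myocd (-1.55), Smtn (-1.11) and Cnn1 (-0.22) were not. Fibroblast markers (6 genes) took 0.0434% to 0.0896% against 0.0167% to 0.0232%, with Dcn called higher (log2 2.28) and none of the other 5 called, of which Col1a1 had a negative value and 4 positive ones. Of 7 platelet markers tested, Ppbp was called lower (log2 -4.49) and Gp1ba higher (1.39), and the other 5 had negative values without a call. Thyroid markers (4 genes) took 0.00574% in IgG library 1 and at most 6.30e-05% in the other 3 libraries, and Tg was called lower. Endothelial markers took 1.07% to 1.08% against 0.458% to 0.604%, and in the test Pecam1 (log2 1.35) and Tek (0.94) were called higher. The rest of that list was not called, with Cdh5 (-0.43), Kdr (-1.77) and Emcn (-0.59) negative and the others positive. The part of all these markers in the changes of Ddah1 and Nos2 was not tested.

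The members that low flow lowered did not pass the test after platelet depletion. Nos3 read 196 and 176 FPKM against 134 and 93.5 with IgG, a log2 difference of 0.69 (95% interval 0.18 to 1.19). Its adjusted p was 0.08253 by edgeR, 0.03124 by DESeq2 and 0.04122 when the 2 groups were fitted alone. Both depleted values stayed below the 397 and 524 FPKM of high-flow IgG intima. Ass1 read 8.71 and 9.3 against 8.18 and 3.59 (log2 0.59, 95% interval -0.12 to 1.30, adjusted p = 0.2538), far under the high-flow values of 64.1 and 49.3. Slc7a2 read 4.24 and 3.56 against 3.32 and 1.79 (log2 0.59, adjusted p = 0.2979), and Asl 23.6 and 21.3 against 15.5 and 15 (log2 0.53, adjusted p = 0.1955). Slc7a1 differed by a log2 of -0.56 (adjusted p = 0.3458) and Ddah2 by 0.10 (adjusted p = 0.8185).

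After Gr1 antibody no member was called, and no gene among all tested (0%), with 2432 genes at an unadjusted p below 0.05 and 142 called by DESeq2. Slc7a2 read 3.9 and 7.38 FPKM against 3.32 and 1.79 with IgG (log2 1.18, adjusted p = 0.2426). Ddah1 read 10.8 and 37.9 (log2 -1.40, adjusted p = 0.333), a wide spread between its 2 libraries. Nos2 had 22 and 12 counts, within the range of 11 to 21 counts with IgG for 1 of them. Neutrophil markers took 0.00209% to 0.00328% of counts and macrophage markers 0.129% to 0.137%.

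After clodronate liposomes no member was called, against 0.119% of all tested genes (16, all lower). Nos2 had 1 and 2 counts against 13 and 15 with PBS liposomes, a ratio of 7.93 lower (counting interval 2.45 to 40.7, adjusted p = 0.2907). Ddah1 was split, at 10.8 and 72.3 FPKM against 125 and 75 (log2 -1.36, adjusted p = 0.406), and reached -3.33 (adjusted p = 0.03612) without clodronate library 2. Nos3 read 144 and 150 against 86.3 and 107 (log2 0.50, adjusted p = 0.3782) and Ass1 7.1 and 7.29 against 4.38 and 3.69 (log2 0.73, adjusted p = 0.3727). Macrophage markers took 0.0244% to 0.025% of counts against 0.138% to 0.233%, and their part in these values was not tested.

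One further pool each of PBS and clodronate liposome low-flow intima came from the 100 bp libraries and has no replicate. Ddah1 was at 44.3 and 31.9 FPKM in these. Nos3 was at 24.2 and 31, and Ass1 at 101 and 157. Asl was at 28.3 and 22.9 and Slc7a1 at 8.22 and 8.43, where the means of the replicated set went the other way, from 11.7 to 12.9 and from 9.77 to 8.1 FPKM. The other 6 members lay on the same side of the PBS pool as their means in the replicated set, and none of these differences was tested.

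At 7 days, Nos3 and Ass1 were still lower at low flow in both genotypes, while the rest of the members were less settled. In controls 3 of 8 members were called, all lower, where 2.4% of tested genes were called (1.44% lower). In EC-KO intima 2 were called, both lower, where 1.09% were (0.741% lower). By the read file dates in the header, the low-flow libraries numbered 1 came first. Control library 4, EC-KO library 5 and all high-flow libraries shared the next date, and control library 5 and EC-KO library 4 had a later one. Markers moved with flow here too. In low-flow controls endothelial markers took 0.492% to 1.10% of counts and macrophage markers 0.0378% to 0.188%, against 1.58% to 1.65% and 0.00679% to 0.0148% at high flow. In EC-KO intima the ranges were 0.775% to 0.948% and 0.0927% to 0.186%, against 1.69% to 1.74% and 0.00946% to 0.0111%. At most 2 of 14 macrophage markers and no endothelial marker were at 0. Smooth muscle markers took 0.11% to 0.177% at low and 0.0275% to 0.0392% at high flow over both genotypes. Acta2 (log2 2.55 in controls, 2.85 in EC-KO) and Emcn (1.44, 1.39) were called higher and Icam2 (-2.06, -1.91) and Tek (-1.60, -1.08) lower in both genotypes. In controls Cd68 (4.23) was also called higher and Egfl7 (-0.98) lower, and in EC-KO intima Lum (5.05) higher. Their part in the changes of the members was not tested.

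**Figure D4:**
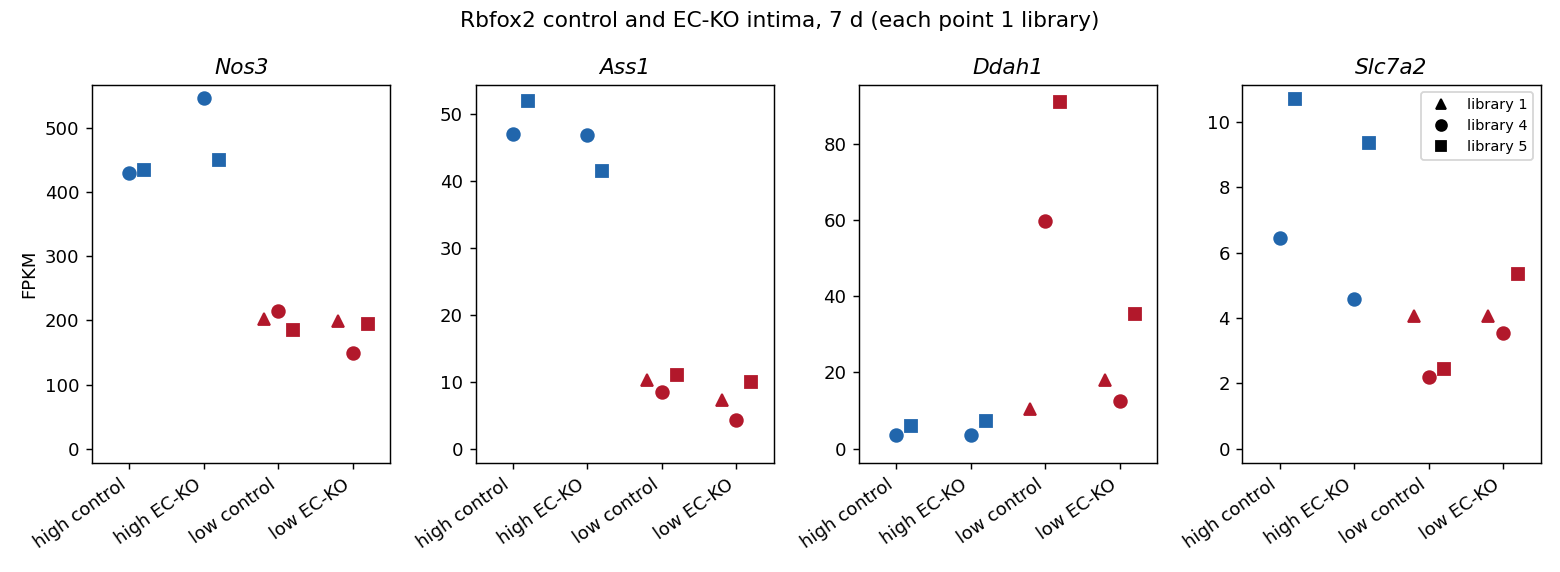
Levels of Nos3, Ass1, Ddah1 and Slc7a2 in Rbfox2 control and EC-KO intima at 7 days, in FPKM, with each point 1 library and its shape the library number. Nos3 and Ass1 separate by flow in both genotypes, while Ddah1 spreads from 10.3 to 91.2 FPKM over the low-flow control libraries.

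In controls Nos3 read 202, 215 and 186 FPKM in low-flow libraries 1, 4 and 5, against 430 and 435 at high flow (log2 -1.19, SE 0.20, adjusted p = 0.02614). In EC-KO intima it read 199, 149 and 195 against 548 and 450 (log2 -1.48, SE 0.20, adjusted p = 0.01535). Ass1 read 10.2, 8.4 and 11 against 46.9 and 51.9 in controls (log2 -2.41, SE 0.32, adjusted p = 0.01196). In EC-KO intima it was at 7.32, 4.2 and 9.93 against 46.8 and 41.5 (log2 -2.64, SE 0.32, adjusted p = 0.01168). No low-flow library overlapped a high-flow library for either gene. Among low-flow libraries only control library 4 and EC-KO library 5 share the date of the high-flow libraries, and the part of read file date was not tested. With libraries 4 and 5 only, a choice made after seeing the data, 5 members were called in controls. In the control groups fitted alone none was, with Nos3 at adjusted p = 0.216. Nos3 lost its call in controls without low-flow library 4 or 5 or either high-flow library, and in EC-KO intima without any 1 library. Ass1 lost it in controls without either high-flow library, and in EC-KO intima without low-flow library 1 or either high-flow library.

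Ddah2 fell in controls, at 79.9, 64.6 and 58.7 FPKM against 121 and 105 (log2 -0.82, SE 0.18, adjusted p = 0.0479). With size factors of the RLE method (adjusted p = 0.05164) or library totals (0.0664) the call was lost, as it was without any 1 library other than low-flow library 1. In EC-KO intima Ddah2 read 73.2, 71.9 and 85.9 against 133 and 112 (log2 -0.68, adjusted p = 0.1152, and 0.04981 with libraries 4 and 5 only). With a replicate block it was called there too.

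Ddah1 and Slc7a2 lay close to the threshold in controls. Ddah1 read 10.3, 59.8 and 91.2 FPKM at low flow against 3.68 and 5.89 at high flow (log2 3.42, SE 0.87, adjusted p = 0.06018). DESeq2 (adjusted p = 6.23e-05) and edgeR with no filter on low counts (0.04078) called it with all libraries, as did edgeR with libraries 4 and 5 only (log2 3.92, adjusted p = 0.002478). Slc7a2 read 4.05, 2.2 and 2.44 against 6.45 and 10.7 (log2 -1.66, adjusted p = 0.05222). It too was called by DESeq2 (adjusted p = 0.002369), with no filter (0.03863) and with libraries 4 and 5 only (log2 -1.96, adjusted p = 0.01073). With a replicate block both genes were called. Without low-flow library 4 or 5 or either high-flow library, the adjusted p of the pair was 0.1164 to 0.3762. Low-flow control library 1 was low in Ddah1 and high in Slc7a2 beside the other low-flow controls. Its endothelial markers took 1.10% of counts, against 0.492% and 0.544% in libraries 4 and 5.

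In EC-KO intima, Ddah1 read 18, 12.6 and 35.3 FPKM at low flow against 3.62 and 7.34 (log2 1.97, adjusted p = 0.2784). With a replicate block in the edgeR fit it was called (adjusted p = 0.03202). Nos2 had 0, 0 and 4 counts in low-flow controls, 0, 13 and 10 in low-flow EC-KO libraries and 0 at high flow.

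Between the genotypes at low flow no member was called, and no gene (0%), with 880 genes at an unadjusted p below 0.05 and 11 called by DESeq2. Nos3 differed by a log2 of -0.13 (95% interval -0.49 to 0.23) and Ass1 by -0.45 (95% interval -1.01 to 0.12). Ddah1 differed by -1.30 (adjusted p = 0.6923) with overlapping groups, and without control library 1 by -1.79 (adjusted p = 0.03562). Neutrophil markers took 0.00174% to 0.0417% of counts in low-flow controls and 0.000794% to 0.00339% in EC-KO libraries, and their part in Ddah1 was not tested. At high flow no member was called, where 0.00749% of tested genes were (1 gene, not a member). The difference of genotype effects between flows passed for no member and no gene (0%, with 538 at an unadjusted p below 0.05).

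Over the 6 comparisons of low flow with high flow or sham, Nos3 and Ass1 were called lower in 6. Slc7a2 was called lower in 3 and Ddah2 in 1. Ddah1 was called higher in 4, Nos2 in 2, and Slc7a1 in 1. Asl, the lyase that works directly after Ass1, was called in none. These comparisons share libraries in part and are not independent of one another.

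The genes whose levels most resembled those of Nos3 over the 35 artery libraries, by Spearman correlation of log2(FPKM + 0.1) among 11365 genes, were Dnm2 (0.9745), Aes (0.9737), Pacs1 (0.9703), Ephb4 (0.9692) and Cyth1 (0.9689). For Ass1 they were Reep5 (0.9445), Mall (0.9359), Tmem109 (0.9333), Anxa11 (0.9291) and Mansc1 (0.9286). The libraries share read length sets and treatments, and levels of both genes differ between the sets, so these values are a description only. Within the 11 libraries of 100 bp the same 5 genes correlated with Nos3 at 0.736 to 0.945 and with Ass1 at 0.882 to 0.982. Within the 24 libraries of 150 bp the values were 0.909 to 0.937 and 0.821 to 0.876, a set of values added after seeing the data.

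The wider pathway was read from 6 lists with 54 other genes, of which 52 matched the table by symbol, covering tetrahydrobiopterin synthesis, partners of the synthases, the nitric oxide receptor and its effectors, other arginine enzymes and transporters, polyamine synthesis, and arginine methylation. At 48 hr, 20 of 41 tested genes were higher at low than at high flow and 4 were lower (all genes 23.6% higher, 22.6% lower), with a median log2 of 0.75 against -0.07 for all genes. The polyamine genes had 7 of 9 higher and none lower, beside the same shares over all genes. Smox, which oxidizes spermine, was at 5.85 ± 2.37 FPKM against 1.42 ± 1.02 (SD, n = 3 each, log2 2.66, adjusted p = 0.001507). Srm, spermidine synthase, was at 11.1 ± 5.47 against 2.88 ± 1.83 (log2 2.5, adjusted p = 0.0005318). Prmt7, an arginine methyltransferase, was at 20.5 ± 6.99 against 8.11 ± 0.997 (log2 2.00, adjusted p = 4.593e-05). Those that fell furthest were Gamt of creatine synthesis (log2 -1.29, adjusted p = 0.02402), Nos1ap (log2 -1.20, adjusted p = 0.01758) and Nosip, which binds the endothelial synthase (log2 -0.60, adjusted p = 0.01908). With 1 pool left out, Gamt kept its call in 2 of 6 fits and Nos1ap and Nosip each in 4, and the counts ran from 15 to 21 higher and from 1 to 4 lower. Against sham 17 of 39 were higher and 2 lower (all genes 20.6% and 19.7%), with Smox (log2 2.47), Srm (2.14) and Sat1 (1.95) first and Gamt (-1.46) and Spr (-0.75) lower. With 1 pool left out, the counts ran from 9 (without sham pool a) to 18 higher and from 0 (without low-flow pool a or b) to 2 lower. Smox and Srm held in all 6 fits, Sat1 in 4, Gamt in 3 and Spr in 2.

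The treated mice gave 15 of 45 pathway genes higher and 2 lower at low flow under IgG, where 22.8% of all genes were higher and 17.7% lower. Under PBS liposomes 12 were higher and 2 lower, where 19.6% and 15.5% of all genes were. With 1 library left out, the counts went as low as 5 higher and 0 lower under IgG (without low-flow library 2) and 1 and 0 under PBS liposomes (without high-flow library 1). Odc1, the enzyme that turns ornithine into putrescine, was at 172 ± 20.6 FPKM at low and 30.4 ± 1.66 at high flow under IgG (SD, n = 2 each, log2 2.42, adjusted p = 0.007253). Srm (log2 3.60) and Prmt3 (2.08), another arginine methyltransferase, were also called higher under IgG. Under PBS liposomes Srm (log2 3.18), Odc1 (2.58) and Smox (1.94) were first. Nos1ap (-2.0 and -1.63) and Azin1, an inhibitor of antizyme (-1.02 and -0.99), were lower under both. After platelet depletion 13 of 45 were lower and 1 higher (all genes 10.5% lower, 16.5% in either direction), with a median log2 of -0.77 against -0.04 for all genes. Srm fell by 2.46 (adjusted p = 0.03708), Odc1 by 2.07 (adjusted p = 0.03466) and Smox by 1.86 (adjusted p = 0.03734) on the log2 scale, and Slc3a2, the heavy chain of amino acid transporters, rose by 1.44 (adjusted p = 0.01612). Leaving out any 1 of the 4 libraries removed these 4 calls (adjusted p from 0.05111 to 0.2133) and left 0 or 1 pathway gene called. No pathway gene was called after Gr1 antibody or clodronate, although without clodronate library 2 there were 4 lower. Between the genotypes at 7 days no pathway gene was called, but at low flow 1 was higher and 6 lower without control library 1. For flow at 7 days only Gatm, which makes the creatine precursor from arginine, was called. Gatm was higher at low flow in controls (log2 2.44, adjusted p = 0.04401) and in EC-KO intima (log2 3.79, adjusted p = 0.01921). Its call held in 1 of 5 fits without 1 library in controls and in none of 5 in EC-KO intima. Without low-flow control library 1, 14 pathway genes were called higher and 6 lower for flow in controls, and without any other 1 library none was.

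In culture, each condition had 1 library, so there is no replicate check and no test. The line had little Nos3, at 0.61 FPKM untreated, 0.971 in plasma, 0.715 beside platelets and macrophages, and 1.5 under the full mix. Endothelial markers took 0.0261% to 0.0331% of counts in the line and 0.487% to 0.541% in primary cells, so the line held little of the defining endothelial RNA. Primary cells had Nos3 at 46.4 FPKM (Rbfox2 control) and 61 (EC-KO), and at 18.4 in the 100 bp eGFP+ library.

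**Figure D5:**
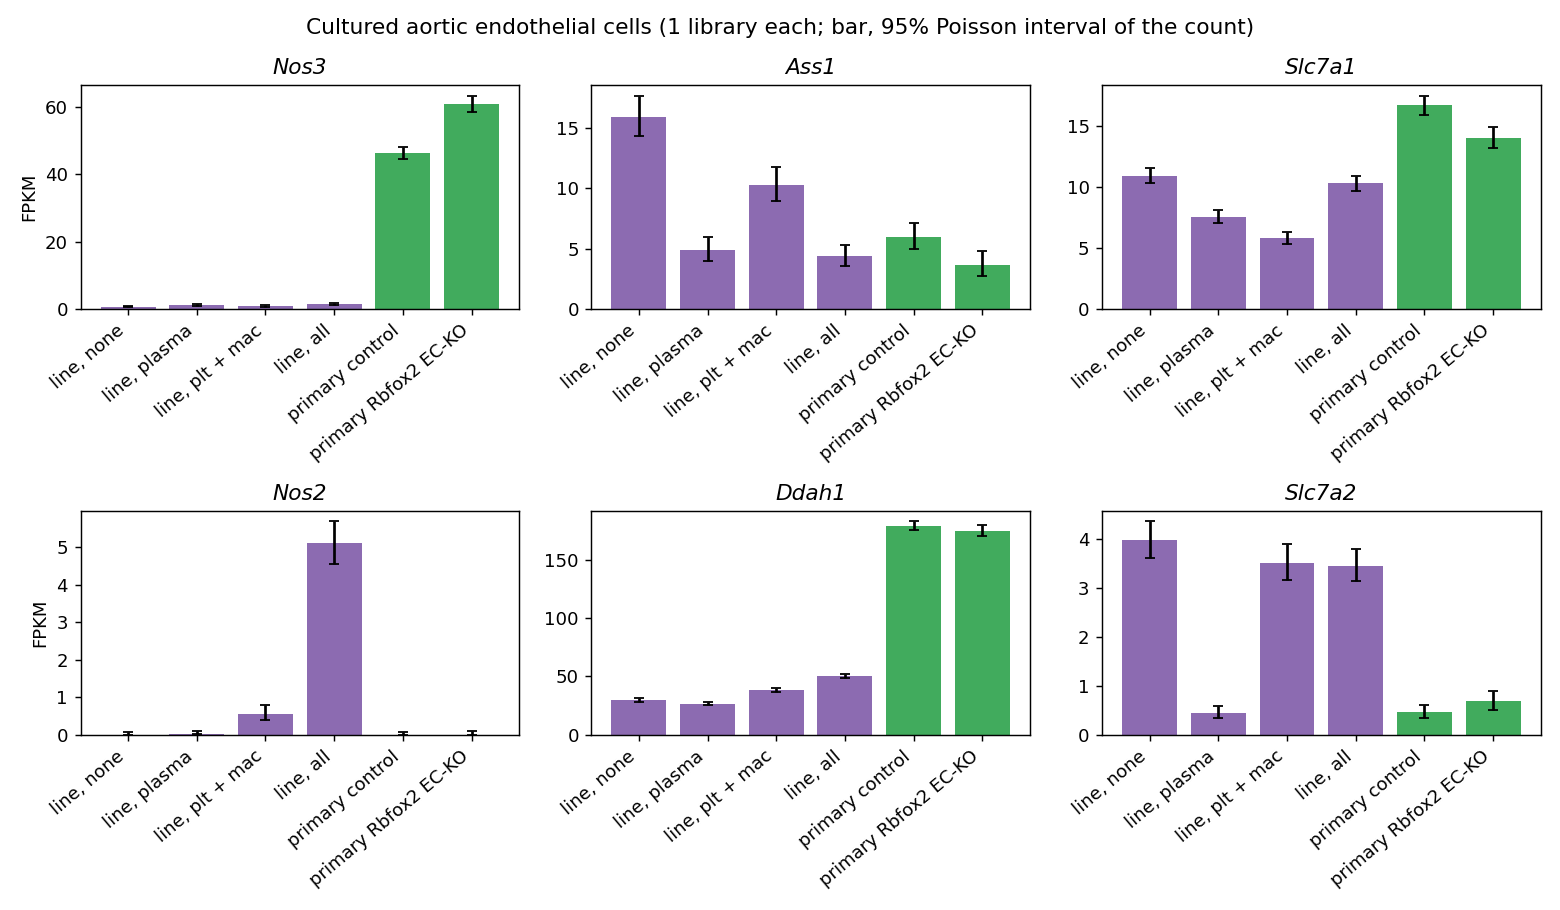
Levels of Nos3, Ass1, Slc7a1, Nos2, Ddah1 and Slc7a2 in the line and in primary Rbfox2 control and EC-KO cells, in FPKM from 0, with each bar 1 library and its whisker the 95% exact Poisson interval of the count. Nos2 reaches 5.11 FPKM in the line given plasma, platelets and macrophages together.

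Nos2 had 0 counts in the untreated line, 1 in plasma, 30 beside platelets and macrophages, and 322 under the full mix, or 0.555 FPKM with platelets and macrophages and 5.11 under the full mix (4.56 to 5.70). It was thus highest in the 1 library given plasma, platelets and macrophages together, and no library had macrophages without platelets. Macrophages were in the dish, and macrophage markers took 0.00537% of counts untreated, 0.00682% in plasma, 0.0407% beside platelets and macrophages, and 0.0322% under the full mix. The part of the added cells in these values was not tested. These intervals cover counting error only, as reads were counted without molecular identifiers.

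Ass1 read 16 FPKM untreated, 4.9 in plasma, 10.3 beside platelets and macrophages, and 4.39 under the full mix, so it was lower in both plasma conditions. Slc7a2 was low in 1 condition, at 0.445 FPKM with plasma against 3.97, 3.51 and 3.45 in the others. Ddah1 read 29.7, 26.5, 38.2 and 50.3, and Ddah2 95.7, 108, 79.2 and 67.6. Asl read 14.1 to 21 and Slc7a1 5.79 to 10.9.

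Primary cells of Rbfox2 control and EC-KO mice had Ddah1 at 180 and 176 FPKM, above every artery library of the same read length. Ddah2 was at 107 and 118, Asl at 25.6 and 25, and Slc7a1 at 16.7 and 14. Ass1 was at 5.99 and 3.65, within the range of low-flow intima of the 150 bp libraries. Nos2 had 0 and 0 counts, where a count of 0 allows up to 3 counts of each library's total. The eGFP+ primary library read Ass1 at 193 FPKM, in a set of another read length.

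The level of Ass1 depended on the read length set. Low-flow intima of the same 2 liposome treatments had a mean of 129 FPKM in 100 bp and 5.62 in 150 bp libraries, 23-fold apart, which ranked 5 from the top of 10446 genes with a mean of at least 1 FPKM in both. Nos3 went the other way, at 27.6 and 122 FPKM, 4.41-fold higher in 150 bp libraries. Ddah2 was at 125.5 and 126. The sets are separate pools of different read length, so fold changes and tests of Nos3 and Ass1 were made only within one of them.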

How the data were processed

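Intimal RNA and cultured cells were sequenced after SMARTer low-input library preparation. The authors deposited expected counts per gene and library, estimated with RSEM 1.2.15 after mapping with STAR 2.5.1b to mm9, per the submitters' processing notes. The methods also name TopHat for the untreated 48 hr pools. These expected counts are not normalized. Reads shared by paralogs are split by RSEM. The methods give a first-strand library type for the TopHat mapping, and a strand setting for the RSEM counts was not given in the sources used here. The analysis read 43 of 206 value columns and left 163 unused, 26 of which hold counts, including the second run of the 100 bp pools. From 21675 entries 1 without a gene name was left out. Depths of libraries are given with the results.

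FPKM were computed from the deposited counts, the deposited effective length and library totals, and are otherwise unadjusted. After rounding, edgeR 4.0.16 (R 4.3.3) tested the counts (filterByExpr, TMM, quasi-likelihood test, Benjamini-Hochberg adjustment). The untreated pools were fitted with only the 2 groups compared, and the treated and the 7 day libraries each in 1 fit over all their groups. DESeq2 1.42.0, RLE factors, library totals, no filter, 2 groups alone, a replicate block and leaving out each library were alternatives. The scripts were tested on simulated data first. Ratios have 95% counting intervals, and a group at 0 was set to a floor of 3 counts. Python 3.11.15 served for the rest, with scipy 1.17.1, numpy 2.4.6, pandas 2.3.3 and matplotlib 3.10.9. The members, gene lists and comparisons were chosen with earlier results of these data known. Named genes are all members, and in each comparison up to 3 pathway genes in each direction, taken among those called by size of log2 fold change. For likeness, the 5 closest genes with a mean FPKM of at least 1 are named. Equal replicate numbers did not mark shared mice in the labels. Protein sequences were not analysed here, and some genes of the pathway are not reported here.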

Additional observations from a re-analysis of the deposited data

How the results depend on the processing

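Of 1108 single values recomputed under the alternatives, 996 kept their direction and side of the threshold, 40 changed sign without being called in either, 53 lost a call and 19 gained one. DESeq2 gained 4 calls and lost none. For flow in 7 day controls, DESeq2 called 5 of the 8 genes, no filter 5, libraries 4 and 5 only 5, and the 2 groups alone 0 (3 in the report). Leaving out 1 library at a time gave 3 to 4 calls for low against high flow at 48 hr, 3 to 4 against sham, 0 to 0 for high flow against sham, 0 to 0 for GPIba, 0 to 0 for Gr1, 0 to 1 for clodronate, 2 to 5 for flow under IgG, 2 to 4 under PBS liposomes, 0 to 5 in 7 day controls and 0 to 1 in EC-KO intima, 0 to 1 for genotype at low flow, and 0 to 0 at high flow and for the difference of genotype effects. Where 1 library was left in a group, it was assumed to vary like the others.

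With a replicate block, 5 of the 8 genes were called for flow in 7 day controls (3 without the block) and 4 in EC-KO intima (2 without it). The block added Ddah1 (adjusted p = 0.005507) and Slc7a2 (0.006469) in controls, and Ddah1 (0.03202) and Ddah2 (0.04931) in EC-KO intima. The block changed no other count of calls. DESeq2 called 3 genes for GPIba and 3 for flow in EC-KO intima, the 2 groups alone 3 for GPIba, and libraries 4 and 5 only 3 in EC-KO intima, against 2 in the report for each. Same-numbered libraries had a median correlation of their deviations of 0.156 at 7 days (6 pairs, -0.054 to 0.264) and 0.038 among treated mice (21 pairs, -0.189 to 0.623). Many of these pairs join different treatments or genotypes. Low with high flow gave 0.452 under PBS liposomes, 0.038 under IgG, 0.207 in 7 day controls and -0.054 in EC-KO intima. These values do not settle whether equal numbers mark shared mice, and the numbers were not taken as pairs. The untreated 48 hr pools were not fitted with a block, since their columns carry letters and no replicate numbers. The planned use of the second run of these pools, alone or summed with the first, was not run. Depth limits Nos2, which had a few counts per untreated pool.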
